A study of Mus musculus with 6 samples.

Results

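The lysyl oxidases and the enzymes and chaperone that process collagen, 10 genes in all, were followed in whole mouse lung after irradiation. The 10 were taken by gene symbol from the 40842 named genes of the deposited tables: the lysyl oxidases Lox, Loxl1, Loxl2, Loxl3 and Loxl4, the lysyl hydroxylases Plod1 and Plod2, the prolyl 4-hydroxylase α subunits P4ha1 and P4ha2, and the collagen chaperone Serpinh1. All 10 were found, and 9 reached the mean of 1 FPKM over the libraries that was needed for a test. Loxl2 did not. FPKM is a transcript level scaled to transcript length and to the mapped fragments of the library, so levels of different genes can be compared per length.

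Polyadenylated RNA was sequenced from whole lung of wild-type female C57BL/6N mice, 3 control libraries (control 1 to 3) and 3 libraries (irradiated 1 to 3) taken 100 days after 1 dose of 20 Gy of 9 MeV electrons. The labels give no age and no exposed part of the body, and the controls carry the same time label. Whether each library stands for its own mouse is not labelled. The p-values below therefore rest on the spread among libraries, part of which may be technical. Samples from 10 days, which the design names, were not analysed here. The study concerns radiation pneumonitis, and the comparison asks how the lung differs late after exposure.

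Collagen is modified inside and outside the cell before it carries load. Inside the endoplasmic reticulum, prolyl hydroxylation makes the triple helix stable at body temperature, lysyl hydroxylation prepares the sites of later crosslinks, and HSP47, the product of Serpinh1, holds the folded procollagen. Outside the cell the copper-dependent lysyl oxidases turn lysines of collagen and elastin into reactive aldehydes that condense into crosslinks, which stiffen the matrix and set the recoil of elastic tissue such as lung.

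Depth, worked out from coverage and FPKM, ranged from 5.11 to 10.4 Gb of aligned sequence, with irradiated 2 the deepest. The files hold no counts, so counting error is unknown. The alveolar markers were present: the 8 alveolar epithelial markers summed to 19208 to 21301 FPKM in the controls and 12730 to 13421 FPKM in the irradiated libraries. Sftpc gave most of these sums (means of 15497 and 9048 FPKM). Control 2 and irradiated 2 lay farthest apart on the first principal component of all tested genes (36.3% of the variance). Control 2 had the most adipose and cardiac transcripts (sums of 434 and 397 FPKM, against 13.4 and 15.3 FPKM in irradiated 2), and irradiated 2 had the most neutrophil and red cell transcripts (sums of 4696 and 6284 FPKM). Over all 13908 tested genes, 25 passed an adjusted p of 0.05 (limma, Benjamini-Hochberg), which is 0.18%.

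The promoters of P4ha1, Serpinh1 and P4ha2 are shown because P4ha1 and Serpinh1 had the highest correlation across the 6 libraries of any pair of members (Pearson r = 0.96), and P4ha2 encodes the α subunit that can take the place of P4ha1's product. RefSeq promoter windows (GRCm38.p6, 250 bases before to 50 bases after the start site) were at hand for 5 of the 10 members. The 3 shown hold ACGTG, a form of the core of the hypoxia response element, which was searched on both strands. The same 5 letters stand in 19.7% of 32544 promoter windows of that length, and a match is a description of the letters and not a bound site. Capitals mark ACGTG, which reads CACGT where it lies on the other strand, and each sequence is written 5′ to 3′ along its gene.
P4ha1, chr10:59323046-59323345, plus strand: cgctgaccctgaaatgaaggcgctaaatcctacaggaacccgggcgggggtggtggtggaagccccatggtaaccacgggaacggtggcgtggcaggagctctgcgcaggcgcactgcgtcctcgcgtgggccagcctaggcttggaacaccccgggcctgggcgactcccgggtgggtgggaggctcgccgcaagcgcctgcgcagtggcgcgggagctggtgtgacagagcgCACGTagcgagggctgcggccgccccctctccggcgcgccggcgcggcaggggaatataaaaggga
Serpinh1, chr7:99353190-99353489, minus strand: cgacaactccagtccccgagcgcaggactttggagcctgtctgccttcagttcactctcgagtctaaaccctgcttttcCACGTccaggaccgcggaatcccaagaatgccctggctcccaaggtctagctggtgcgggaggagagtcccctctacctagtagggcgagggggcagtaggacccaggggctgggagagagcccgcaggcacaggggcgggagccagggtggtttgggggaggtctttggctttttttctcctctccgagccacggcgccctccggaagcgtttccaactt
P4ha2, chr11:54100674-54100973, plus strand: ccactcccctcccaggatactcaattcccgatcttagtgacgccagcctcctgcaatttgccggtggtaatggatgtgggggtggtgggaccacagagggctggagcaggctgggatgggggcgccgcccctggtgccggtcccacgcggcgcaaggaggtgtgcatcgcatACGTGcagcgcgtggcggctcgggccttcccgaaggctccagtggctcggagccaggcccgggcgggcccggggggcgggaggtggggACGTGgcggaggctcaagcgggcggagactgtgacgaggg
The core begins at base 235 of the P4ha1 window, at base 80 of the Serpinh1 window and at bases 173 and 261 of the P4ha2 window, which holds it 2 times. The windows of Plod1 and Loxl4 do not hold these letters. Other forms of the core were not searched, so these windows cannot be said to lack it.

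Lox, the founding member of the lysyl oxidase family, had the largest difference among the members. Controls 1 to 3 read 5.87, 6.08 and 10.1 FPKM, and irradiated 1 to 3 read 25.4, 33.2 and 18.2 FPKM. The lowest irradiated library thus lay above the highest control, control 3. The group means were 7.36 ± 2.41 and 25.6 ± 7.50 FPKM (SD, n = 3 each), a ratio of 3.47. In log2(FPKM + 1), where changes of low genes come out too small, the difference between irradiated and control was 1.67 ± 0.27 (standard error), and it did not pass over all genes (limma, unadjusted p = 0.000489, adjusted p = 0.0701). By p it was number 94 of the 13908 genes, and by size of the difference number 59 from the top. The adjusted p stayed above 0.05 without each of the 6 libraries in turn, with differences from 1.46 (without irradiated 2) to 1.89 (without control 3), and was lowest without irradiated 3 (limma adjusted p = 0.0505). The gene lies on chromosome 18, 52649132 to 52662939 on the minus strand (GRCm39), and no other named gene overlaps it.

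In bulk tissue, a change in the share of cells of a type and a change of RNA per cell cannot be told apart. Fibroblasts are a main source of Lox in connective tissue, and the 8 fibroblast markers went both ways. Of these, 2 had positive and 6 negative differences, with 2 higher and 2 lower at an unadjusted p under 0.05 and 0 calls (limma). Pdgfra lay above all controls in every irradiated library, Tcf21 and Cd248 lay below, and Pi16 was highest in irradiated 2 (8.05, 21.7 and 13.0 FPKM in irradiated 1 to 3, against 5.13, 9.30 and 5.90 FPKM in control lung). These 4 are named because their values were seen to differ. The summed level, to which Inmt gave the most, was 1750 to 2073 FPKM among controls and 1319 to 1851 FPKM after irradiation. Smooth muscle markers (6 of 7 tested, 5 negative and 1 positive, 0 at an unadjusted p under 0.05) summed to 129 to 252 FPKM in the controls and 122 to 170 FPKM in the irradiated libraries. Neutrophil markers (6 of 6 with positive differences) summed to 75.9 to 503 FPKM and 218 to 4696 FPKM. They were highest in irradiated 2, the library with the most Lox, and in control 3 among the controls. Irradiated 1 went the other way: its neutrophil sum (218 FPKM) was below that of control 3 (503 FPKM), and its Lox (25.4 FPKM) was above that of control 3 (10.1 FPKM). Leukocyte markers (5 of 6 positive, 4 above all controls, 4 higher at an unadjusted p under 0.05) summed to 3270 to 4284 FPKM and 2876 to 3857 FPKM. Most of that sum was Lyz2 (means of 3688 and 3084 FPKM), the marker of this list with a negative difference. Endothelial markers (6 of 7 negative, 2 below all controls, 3 lower at an unadjusted p under 0.05) summed to 672 to 843 FPKM and 535 to 710 FPKM. Over all genes, 9.91% lay above and 14.6% below all controls. At an unadjusted p under 0.05, 7.41% of all genes were higher and 10.3% lower. With limma 0 markers passed in these lists, and none was listed at 0 in any library. Their part in the difference of Lox was not tested.

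**Figure D1:**
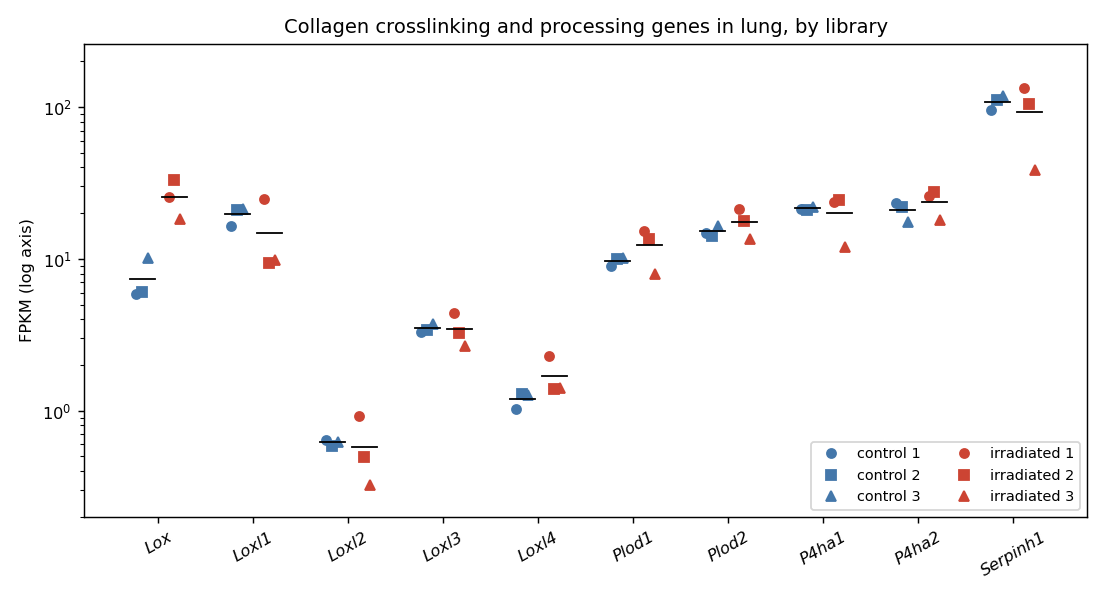
FPKM (log axis) of the 10 members in each library, with control in blue and irradiated in red. Marker shapes give replicates 1 to 3, which were not treated as pairs, and black lines the group means. The 3 irradiated values of Lox (18.2 to 33.2 FPKM) all lie above its controls (5.87 to 10.1 FPKM), whereas the groups of most other members overlap.

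Loxl1, the family member known for its part in elastic fibre upkeep, split the irradiated libraries. It measured 16.6, 21.1 and 21.3 FPKM in control lung against 24.9, 9.41 and 9.87 FPKM in irradiated 1 to 3. Irradiated 1 exceeded every control, while irradiated 2 and 3 were below every control, so the groups overlapped. The difference was −0.52 ± 0.36 (limma adjusted p = 0.486). Without irradiated 1, the library that differed from the other irradiated ones, it was −0.95 ± 0.13 (limma adjusted p = 0.0530). Without any other single library it was −0.63 to −0.29 (limma adjusted p 0.545 to 0.743). Loxl1 lies on chromosome 9, 58195006 to 58220495.

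Loxl3, which carries scavenger receptor domains beside its catalytic domain, measured 3.31, 3.41 and 3.72 FPKM in control lung against 4.39, 3.22 and 2.67 FPKM in the irradiated libraries. Irradiated 1 lay above and irradiated 2 and 3 below all controls (difference −0.03 ± 0.16, limma adjusted p = 0.937). Its end overlaps that of Htra2 on the opposite strand, which averaged 14.2 FPKM in the controls and 11.8 FPKM in the irradiated libraries, and without a stated strand setting reads of the shared stretch cannot be told apart. Loxl4, of the same scavenger receptor type, measured 1.02, 1.29 and 1.26 FPKM in control lung against 2.28, 1.39 and 1.41 FPKM in the irradiated libraries. Its groups did not overlap, but the gap between 1.29 and 1.39 FPKM is small, and the difference of 0.28 ± 0.17 did not pass (limma adjusted p = 0.424). Loxl3 lies on chromosome 6, 83011186 to 83029547, and Loxl4 on chromosome 19, 42580718 to 42601326.

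Loxl2, a scavenger receptor type oxidase that crosslinks collagen IV of basement membranes, was the lowest of the family as listed. It measured 0.640, 0.588 and 0.625 FPKM in control lung against 0.919, 0.494 and 0.326 FPKM in the irradiated libraries, with irradiated 1 above and irradiated 2 and 3 below all controls. The tables also list loci assembled from each library without a gene name, and for the other 9 members these held nearly the same value as the named gene, between 0.994 and 1.22 times. At Loxl2 they did not. An unnamed locus on the same strand covered the downstream end of Loxl2 (chromosome 14, 69846085 to 69933283), reaching in control 2 from 69926479 to 69933381, and stood 8.69 to 10.3 times above the named gene in the 6 libraries. Its level was 5.56, 5.45 and 6.46 FPKM in the controls (5.82 ± 0.555, SD, n = 3) and 9.11, 4.94 and 3.24 FPKM in the irradiated libraries (5.76 ± 3.02, SD, n = 3). The irradiated libraries kept the order of the named gene, 1 above 2 above 3. The low listed level of Loxl2 therefore depends on which of the entries is read, while on both the irradiated range contains all controls.

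The shares of Lox and Loxl1 among lysyl oxidase transcripts did not overlap between the groups (described here with no test). Loxl1 made up 60.4%, 65.0% and 57.4% of the summed FPKM of the 5 named genes in control 1 to 3, and Lox 21.4%, 18.7% and 27.4%. In irradiated 1 to 3 Lox made up 43.9%, 69.6% and 56.0%, and Loxl1 43.0%, 19.7% and 30.4%. Lox was thus below Loxl1 in each control and above it in each irradiated library, by a ratio of 0.354, 0.288 and 0.478 against 1.02, 3.53 and 1.84. The summed level of the 5 genes overlapped between the groups (32.3 ± 4.81 and 46.0 ± 12.8 FPKM, SD, n = 3 each). In irradiated 1 the share rests on a high Lox beside a Loxl1 above all controls, and in irradiated 2 and 3 on a high Lox beside a low Loxl1.

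**Figure D2:**
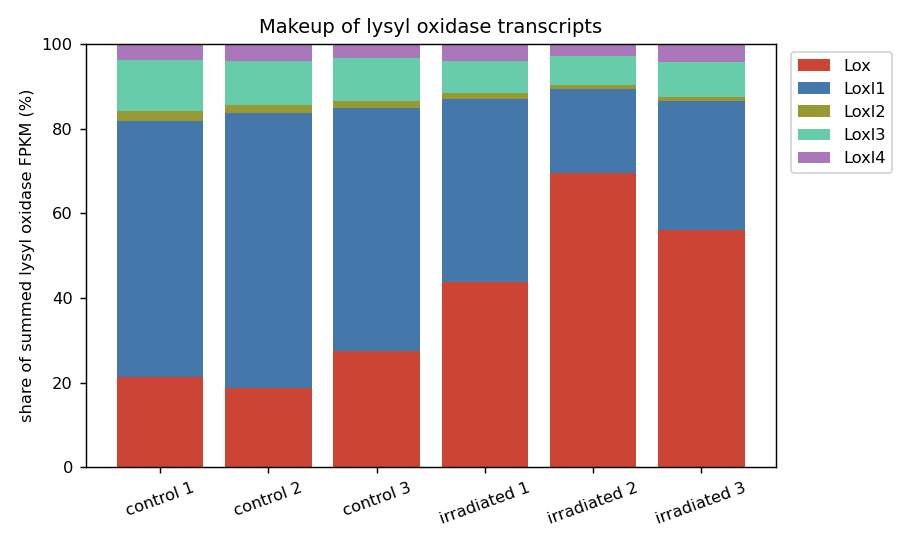
Share (%) of each of the 5 named lysyl oxidase genes in their summed FPKM, 1 bar per library. Lox takes 18.7% to 27.4% in the controls and 43.9% to 69.6% in the irradiated libraries, while Loxl1 takes 57.4% to 65.0% and 19.7% to 43.0%.

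The lysyl hydroxylases act before the oxidases, on lysines of the helix and of the telopeptides at the ends of the chain. Plod1, which hydroxylates lysines in the helix, measured 8.94, 9.96 and 10.1 FPKM in control lung against 15.3, 13.5 and 7.95 FPKM in the irradiated libraries. Plod2, the telopeptide lysyl hydroxylase, measured 14.7, 14.2 and 16.5 FPKM in control lung against 21.4, 17.8 and 13.4 FPKM in the irradiated libraries. In both genes irradiated 1 and 2 lay above all controls and irradiated 3 below all of them. The differences were 0.27 ± 0.22 for Plod1 (limma adjusted p = 0.565) and 0.18 ± 0.16 for Plod2 (limma adjusted p = 0.606). Without irradiated 3 they were 0.53 ± 0.11 and 0.35 ± 0.12 and still did not pass (limma adjusted p = 0.0787 and 0.193). Without irradiated 1 they fell to 0.097 and 0.032 (limma adjusted p = 0.856 and 0.938). Plod3, the family member that also glycosylates hydroxylysine, showed the same order, with 19.7, 20.1 and 21.1 FPKM against 25.4, 23.5 and 15.9 FPKM. Plod1 lies on chromosome 4, 147994210 to 148021233, and Plod2 on chromosome 9, 92421828 to 92490481.

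The prolyl 4-hydroxylases are tetramers of α subunits, which carry the active site, and P4hb. P4ha1 was at 21.4, 21.1 and 22.0 FPKM in the controls, a spread of 0.466 FPKM (SD, n = 3), and at 23.8, 24.5 and 11.9 FPKM in irradiated 1 to 3. P4ha2 measured 23.2, 22.0 and 17.6 FPKM in control lung against 25.9, 27.4 and 18.0 FPKM in the irradiated libraries. For both, irradiated 1 and 2 lay above all controls, and irradiated 3 was below all controls in P4ha1 and within their range in P4ha2. The differences, −0.16 ± 0.26 for P4ha1 and 0.16 ± 0.18 for P4ha2, did not pass (limma adjusted p = 0.786 and 0.674). P4hb was far more abundant at 151 ± 7.25 and 141 ± 14.1 FPKM (SD, n = 3 each; limma adjusted p = 0.679). P4ha1 lies on chromosome 10, 59159019 to 59209126, and P4ha2 on chromosome 11, 53991750 to 54022494.

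Serpinh1 was the most abundant member, at 95.2, 112 and 118 FPKM in control lung against 134, 105 and 38.7 FPKM in the irradiated libraries. Irradiated 1 was above all controls, irradiated 2 among them and irradiated 3 far below them. The difference was −0.39 ± 0.44 (limma adjusted p = 0.683), and without irradiated 3 it turned to 0.14 (limma adjusted p = 0.656). Serpinh1 lies on chromosome 7, 98994582 to 99002480. Among the irradiated libraries, irradiated 3 was the lowest in 8 of the 10 members and irradiated 1 the highest in 7. Lox shared the first pattern, since irradiated 3 was its lowest irradiated library too, but it did so at a level above the controls.

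**Figure D3:**
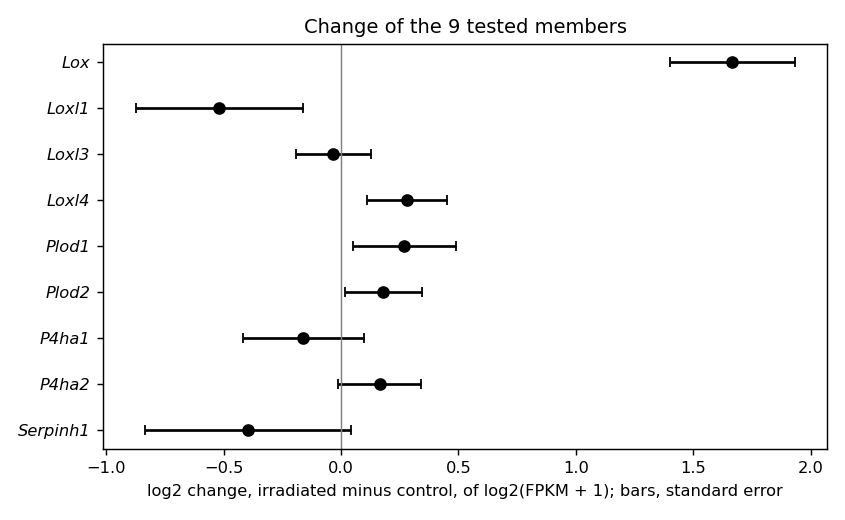
Difference between irradiated and control libraries on the log2(FPKM + 1) scale for the 9 members that could be tested, with its standard error from limma (3 libraries per group). Lox stands at 1.67, and the other 8 lie between −0.52 (Loxl1) and 0.28 (Loxl4).

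Taken as a list, the members were not set apart by their counts. With limma 0 of the 9 tested members passed over all genes (0.18% of all genes did, 0.0647% higher and 0.115% lower). Lox alone had an unadjusted p under 0.05, against 17.7% of all genes, 7.41% higher and 10.3% lower. The groups did not overlap in 2 of the 9, Lox and Loxl4, against 24.5% of all genes in either direction. Both had irradiated above control, which 9.91% of all genes had, while 14.6% had irradiated below control. The median difference of the 9 was 0.16, with 5 positive and 4 negative, against −0.03 over all tested genes. In the control lung the order by level was Serpinh1, P4ha1, P4ha2, Loxl1, Plod2, Plod1, Lox, Loxl3, Loxl4 and Loxl2. The neighbours P4ha1 and P4ha2, P4ha2 and Loxl1, and Plod1 and Lox overlapped in their ranges. In irradiated lung Lox stood at place 2 instead of 7 by its mean, behind Serpinh1. There its range overlapped those of P4ha2, P4ha1, Plod2 and Loxl1, so this place is not settled.

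Among the collagen chains and elastin, the substrates of these enzymes, irradiated 2 lay below all controls in Col1a1 and Col3a1 and above all controls in Col4a1 and Col4a2. Col1a1, the main fibrillar chain, measured 30.8, 34.8 and 26.0 FPKM in control lung against 53.9, 17.8 and 11.4 FPKM in irradiated 1 to 3. Col3a1, of type III collagen, measured 72.2, 97.8 and 81.6 FPKM in control lung against 134, 30.8 and 19.8 FPKM in the irradiated libraries. In both, irradiated 1 lay above and irradiated 2 and 3 below all controls, the split also seen in Loxl1, Loxl2 and Loxl3. Col1a2, Col5a1, Col5a2, Col6a2, Col6a3 and, by a small margin, Col6a1 showed it too. So did further pathway genes, among them Adamts2, Fkbp10 and Efemp2. Mesothelial markers were also lower in irradiated 2 and 3 than in irradiated 1, but none of them lay above all controls in irradiated 1. Relative to the control mean, the list's median was −0.48, −1.48 and −1.11 (log2 scale) in irradiated 1 to 3. Its sum was 124 to 233 FPKM in control lung and 60.3 to 115 FPKM after irradiation. All 5 mesothelial differences were negative, and 3 of the 5 markers lay below all controls, against 14.6% of all genes. With limma 0 passed, and 3 were lower at an unadjusted p under 0.05, against 10.3% of all genes. Of the fibroblast and endothelial markers, only Dpt and Emcn showed the full split, and they are named because of it. Dpt, on the fibroblast list, was at 64.6, 88.3 and 62.2 against 110, 56.0 and 54.1 FPKM. Emcn, on the endothelial list, was at 28.2, 32.8 and 29.8 against 35.4, 17.8 and 18.6 FPKM. The part of any of these cell types in the split was not tested. Eln, the elastin gene, was at 24.0, 38.9 and 34.6 against 69.6, 42.4 and 23.0 FPKM. Of the 12 substrates tested of 14 listed, 0 passed (limma), and the median difference was −0.18. At an unadjusted p under 0.05, 1 was higher and 1 lower, against 7.41% and 10.3% of all genes. These were Col4a2, a chain of basement membrane collagen (76.9 ± 8.78 and 125 ± 39.4 FPKM, SD, n = 3 each; 0.65 ± 0.25, limma adjusted p = 0.249), and Col5a3 (1.34 ± 0.227 and 0.740 ± 0.291 FPKM; −0.44 ± 0.17, limma adjusted p = 0.255). Col4a1, the partner of Col4a2, was at 84.4 ± 7.71 and 132 ± 57.5 FPKM (limma adjusted p = 0.477). Calls depended on single libraries: without irradiated 3, Col4a1 (0.95 ± 0.12) and Col4a2 (0.94 ± 0.13) passed (limma adjusted p = 0.0410 and 0.0452), and without irradiated 1, Col3a1 passed (−1.71 ± 0.22, limma adjusted p = 0.0443). More genes passed in general in these settings. They were 118 of 13829 tested genes without irradiated 3 and 101 of 13864 without irradiated 1, against 25 of 13908 with all libraries.

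Relative to Col1a1, Lox was higher in each irradiated library than in any control. On the log2 scale, with 1 FPKM added to each, the ratio of Lox to Col1a1 was −2.21, −2.34 and −1.28 in the controls and −1.06, 0.86 and 0.63 in irradiated 1 to 3. All irradiated libraries lay above all controls, with irradiated 1 close to control 3. The means were −1.94 ± 0.579 and 0.15 ± 1.05 (SD, n = 3 each), a difference of 2.09 (exact two-sided permutation p = 0.10, the smallest that 3 against 3 libraries allow). Set against the summed FPKM of Col1a1, Col1a2 and Col3a1, which does not include it, the FPKM of Lox came to 3.56%, 3.06% and 6.28% in the controls and to 8.92%, 36.5% and 28.1% in the irradiated libraries. For Serpinh1, the log2 ratio to Col1a1 averaged 1.80 ± 0.297 and 1.83 ± 0.615 (SD, n = 3 each; difference 0.03, exact two-sided permutation p = 0.90).

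**Figure D4:**
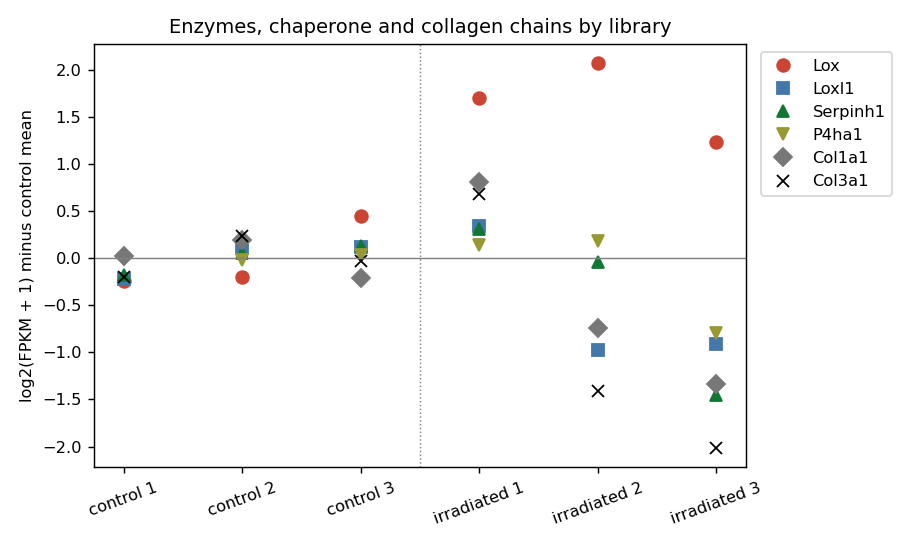
Lox, Loxl1, Serpinh1, P4ha1, Col1a1 and Col3a1 in each library, as log2(FPKM + 1) minus the control mean. Lox lies between 1.23 and 2.07 in the irradiated libraries, while Col3a1 lies at 0.68 in irradiated 1 and at −1.41 and −2.02 in irradiated 2 and 3, and Serpinh1 reaches −1.46 in irradiated 3.

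Among 61 other genes of the members, the further collagen pathway and the substrates, those most like Lox over the 6 libraries were Fkbp14 (Pearson r = 0.88), Tmem38b (0.87) and Col4a2 (0.87). Those most like Serpinh1 were P4ha1 (r = 0.96), Plod3 (0.88) and Tgm2 (0.87). These values describe 6 libraries that fall into the 2 groups compared, and within each library all genes share its depth and scaling.

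The other genes of the collagen pathway, 44 in all of which 41 were tested, gave 0 calls with limma and a median difference of −0.08. At an unadjusted p under 0.05, 3 were higher and 7 lower. Over all tested genes 7.41% were higher and 10.3% lower at that p, and these shares stand beside the counts of each list below. Among hydroxylation partners and glycosyltransferases (11 tested, 4 lower and 0 higher at an unadjusted p under 0.05), Colgalt2, a collagen galactosyltransferase, measured 6.01, 5.62 and 6.36 FPKM in control lung against 2.87, 2.84 and 4.29 FPKM in the irradiated libraries, with no overlap (−0.71 ± 0.15, limma adjusted p = 0.0970). P3h4 and Crtap, which belong to complexes that modify collagen in the endoplasmic reticulum, were at 14.1 ± 2.44 and 9.37 ± 1.97 FPKM and at 23.5 ± 0.973 and 18.0 ± 3.62 FPKM (SD, n = 3 each; limma adjusted p = 0.182 and 0.231), and in both the irradiated libraries lay below all controls.

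Among folding and export genes (12 tested, 2 higher and 1 lower at an unadjusted p under 0.05), Tmem38b, an ion channel of the endoplasmic reticulum that is mutated in brittle bone disease, measured 10.62, 10.15 and 9.57 FPKM in control lung against 13.44, 14.04 and 13.91 FPKM in the irradiated libraries. Its groups were apart, with a narrow spread (0.41 ± 0.08, limma adjusted p = 0.0861). Fkbp14, a prolyl isomerase that acts on procollagen, measured 7.12, 7.19 and 8.97 FPKM in control lung against 15.4, 20.9 and 8.04 FPKM in irradiated 1 to 3, where irradiated 3 lay among the controls (0.77 ± 0.31, limma adjusted p = 0.271). Without irradiated 3, Fkbp14 passed (1.12 ± 0.16, limma adjusted p = 0.0499) and so did Colgalt2 (−0.86 ± 0.11, limma adjusted p = 0.0402). In that setting 118 of 13829 tested genes passed, against 25 of 13908 with all libraries. Kdelr2, a receptor that returns chaperones to the endoplasmic reticulum, was at 31.1 ± 1.53 and 24.8 ± 2.63 FPKM (SD, n = 3 each; limma adjusted p = 0.182).

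Bmp1, the proteinase that removes the C-propeptide of procollagen and also activates pro-lysyl oxidase, measured 17.2, 17.7 and 16.9 FPKM in control lung against 21.2, 17.0 and 24.5 FPKM in the irradiated libraries (0.25 ± 0.13, limma adjusted p = 0.381). Of the propeptide group (6 tested, 2 lower and 0 higher at an unadjusted p under 0.05), its relative Tll1 was at 1.55 ± 0.175 and 0.727 ± 0.243 FPKM and the enhancer Pcolce at 76.4 ± 10.8 and 51.4 ± 18.1 FPKM (SD, n = 3 each; limma adjusted p = 0.159 and 0.259). Of the fibril assembly group (12 tested, 1 higher and 0 lower at an unadjusted p under 0.05), Fn1, the fibronectin gene, measured 33.7, 45.0 and 43.9 FPKM in control lung against 106, 74.6 and 46.5 FPKM in the irradiated libraries (0.81 ± 0.29, limma adjusted p = 0.232). The next by p in that group were Tnxb and Fbln5, with limma adjusted p of 0.521 and 0.564.

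**Figure D5:**
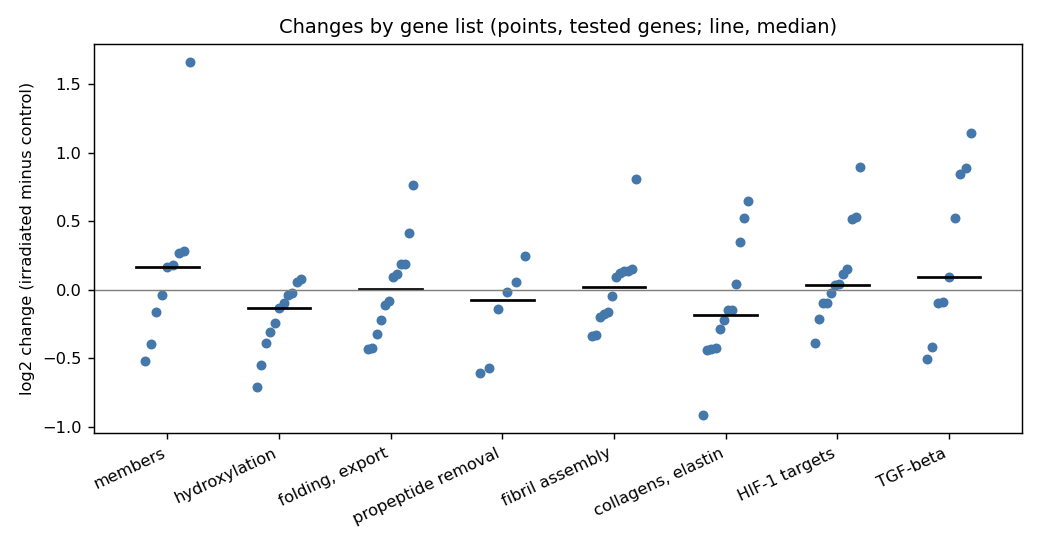
Difference between irradiated and control libraries on the log2(FPKM + 1) scale for each tested gene, by list, with the list's median as a line. Lox, at 1.67, is the highest point in any of the 8 lists, and list medians lie between −0.18 (collagens and elastin) and 0.16 (members).

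Lox, P4ha1, P4ha2 and Plod2 are known to be induced through the hypoxia factor HIF-1, and Lox also through TGF-β. Of 12 HIF-1 target genes, 0 passed (limma), 2 were higher and 0 lower at an unadjusted p under 0.05, and the median difference was 0.04. Those with the smallest p were Adm, the vasodilator adrenomedullin (1.83 ± 0.276 and 4.55 ± 2.06 FPKM, SD, n = 3 each; limma adjusted p = 0.208), the glucose transporter Slc2a1 (9.37 ± 0.982 and 14.1 ± 3.83 FPKM; limma adjusted p = 0.237) and Egln3, a prolyl hydroxylase that acts on HIF (0.818 ± 0.298 and 1.68 ± 0.788 FPKM; limma adjusted p = 0.299). Adm was highest in irradiated 2 and 3 (5.73 and 5.76 FPKM) and near the controls in irradiated 1 (2.18 FPKM).

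Of 9 genes of the TGF-β ligands and their targets, 0 passed (limma), 3 were higher and 2 lower at an unadjusted p under 0.05, and the median difference was 0.10. Ccn2, a matricellular target, measured 39.1, 40.6 and 81.0 FPKM in control lung against 126, 131 and 86.9 FPKM in irradiated 1 to 3 (1.15 ± 0.31, limma adjusted p = 0.153). Tgfbi, a secreted adhesion protein, measured 23.2, 23.6 and 22.2 FPKM in control lung against 30.5, 55.7 and 48.4 FPKM in the irradiated libraries (0.89 ± 0.21, limma adjusted p = 0.118), and Ltbp2, which binds elastic fibres, at 11.3 ± 1.59 and 16.7 ± 3.07 FPKM (SD, n = 3 each; limma adjusted p = 0.171). In these 3 the irradiated libraries lay above all controls, and in the ligands Tgfb2 and Tgfb3 they lay below, against 9.91% and 14.6% of all genes. Tgfb3 was at 11.9 ± 0.983 and 8.15 ± 1.84 FPKM and Tgfb2 at 7.09 ± 0.585 and 5.13 ± 1.23 FPKM (SD, n = 3 each; limma unadjusted p = 0.0123 and 0.0331), and both are named because of these values. Of the irradiated libraries, Ccn2 and Tgfbi were highest in irradiated 2, as Lox was, and the lowest was irradiated 3 for Ccn2, as for Lox, and irradiated 1 for Tgfbi.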

How the data were processed

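FPKM and coverage per gene were read from 1 table per library. Per the submitters' processing notes, the build was GRCm39 and the tools were STAR 2.7.6a, fastp and DESeq2, with no role or order given; for the table-making step, its strand setting and gene models, the answer is: not given in the sources used here. By their headers, the tables that the authors deposited hold FPKM. A coverage signal that the authors deposited beside it served only to estimate depth, from its ratio to FPKM. FPKM was summed per gene ID over rows with a name. Unnamed rows mostly repeat named genes: with both, the deposited TPM column sums to 1980000 or more, and it was not used. Chromosome numbers come from a RefSeq table of another build, matched by symbol.

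limma 3.58.1 (R 4.3.3, trend and robust variance) was fitted on log2(FPKM + 1) over genes averaging 1 FPKM or more, with the group as the only term and Benjamini-Hochberg adjustment over 13908 genes. The procedure was tested on simulated data with noise drawn independently for each gene and library. Variation shared by many genes of a library was not simulated, so that test cannot speak to it. The members and lists were chosen with earlier results of these data known. Every member is named. From each pathway, substrate and inducer list the text names called genes, or else the 3 with the smallest p, and always Col1a1, Col3a1, Plod3, P4hb, Bmp1 and Eln. Marker lists are given as counts and sums. Alternatives were other pseudocounts, filters, scalings and variance models, the replicate number as a block, adding unnamed loci and leaving out libraries. Exact tests went through every split of the libraries in Python 3.11.15, and joins used pandas 2.3.3.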

Additional observations from a re-analysis of the deposited data

How the results depend on the processing

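Lox had a positive difference under all 17 alternatives (1.36 to 1.89) and passed in none (limma adjusted p 0.0505 to 0.293), and the count of members called was 0 in each. The count of all genes called, 25, was 38 with a minimum mean of 5 FPKM, 0 with no filter (3531 at an unadjusted p under 0.05), 11 with median-ratio scaling, 12 with upper-quartile scaling, 13 with a common sum, and 9 without control 2 and irradiated 2, an alternative chosen after seeing the data. Without 1 library it ran from 0 (without control 1 or control 3) to 118 (without irradiated 3), with 1 without control 2, 101 without irradiated 1 and 3 without irradiated 2. The common sum raised the median difference of all genes by 0.112. Members whose groups did not overlap, 2 in the report, were 1 with a minimum of 5 FPKM and 1 with upper-quartile scaling. Without 1 library they were 2 to 6 (4 without irradiated 1, 6 without irradiated 3). Smaller groups come apart more easily, and the share over all genes was not worked out for these settings. The counts therefore cannot be set beside the 24.5% of all genes in the full comparison. Pathway genes called were 0 to 2 and substrates called 0 to 2 without 1 library, the highest without irradiated 3, and 1 substrate was called without irradiated 1. Directions turned for 3 members and 1 ratio. Loxl3 was 0.067 with a common sum and −0.18 to 0.092 without 1 library, P4ha1 −0.33 to 0.16, Serpinh1 −0.75 to 0.14, and Serpinh1 relative to Col1a1 −0.31 to 0.29. The cause of these shifts was not tested. With the replicate block 0 genes were called (1623 at an unadjusted p under 0.05), and Lox was 1.67 (limma adjusted p = 0.293). The labels do not say whether same-numbered libraries are paired. Their residuals correlated at −0.17, −0.537 and −0.28, which cannot settle it, since pairs with unlike numbers were not set beside them. Without counts, no limit from counting error can be given.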
